A study of Mus musculus with 8 samples.

Results

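The Hox genes were followed in mouse embryonic epidermis with and without Nir (Noc2l), a nucleolar protein gene. Transcripts were taken that carry a symbol of the form Hoxa, Hoxb, Hoxc or Hoxd plus a number and belong to a protein-coding gene, with the transcript of the largest total count kept for each gene. The 37 described here, of 23146 named genes, are 10 genes of cluster A on chromosome 6, 10 in cluster B on chromosome 11, 8 in cluster C on chromosome 15 and 9 in cluster D on chromosome 2. For description they were divided into anterior (paralogue numbers 1 to 3, 7 genes), central (4 to 8, 15 genes) and posterior (9 to 13, 15 genes).

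The study sequenced total RNA of epidermis that had been peeled from the dermis, with 2 libraries in each of 4 groups. The controls were Nir floxed embryos at E15.5 and at E17.5, and the knockouts at the same 2 stages came from Nir floxed mice crossed to Krt14-Cre mice. The floxed Nir allele is therefore in all 4 groups, and Cre, driven by the promoter of the basal keratinocyte keratin Krt14, is named for the knockouts alone. Cre in this line acts in keratinocytes, so other cells left in a peeled sheet are not its target. The labels do not give the body region, and they number the libraries but do not tell whether embryos were separate or pooled. The spread behind every p-value is that between libraries and may be technical.

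Hox genes encode homeodomain transcription factors that give cells their position along the body axis. Within a cluster the genes stand in the order in which they are used along the body, the low numbers acting towards the head and the high numbers towards the tail and the ends of the limbs. In skin, fibroblasts and to a lesser degree keratinocytes keep such a positional code after birth. Hox proteins bind DNA together with partners of the TALE class (Pbx, Meis and Pknox), and the clusters are held silent by Polycomb complexes and open by trithorax complexes.

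The sequences just upstream of 4 Hox genes are printed because the genes form the contrasts that recur in the results: the neighbours Hoxa7 and Hoxa9, which moved in opposite directions at E17.5, and the paralogues Hoxb8 and Hoxd8, of which Hoxb8 fell and Hoxd8 was not called. Each is the 250 bases before the start listed by RefSeq (GRCm38.p6), read 5′ to 3′ on the strand of the gene. Hoxa7 lies at chr6:52218574-52218823 on the minus strand, Hoxa9 at chr6:52227371-52227620 on the minus strand, Hoxb8 at chr11:96281655-96281904 on the plus strand and Hoxd8 at chr2:74704365-74704614 on the plus strand. Capitals mark matches, on either strand, to TGATNNAT (a joint Hox and Pbx site), TTTATG (a core bound by Cdx factors), TATAAA (the TATA box) and CCAAT (the CCAAT box).
Hoxa7: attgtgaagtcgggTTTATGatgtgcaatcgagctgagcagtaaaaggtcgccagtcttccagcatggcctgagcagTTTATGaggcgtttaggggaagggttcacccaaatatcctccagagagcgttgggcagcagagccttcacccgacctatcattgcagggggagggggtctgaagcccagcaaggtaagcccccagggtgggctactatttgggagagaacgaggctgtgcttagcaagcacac
Hoxa9: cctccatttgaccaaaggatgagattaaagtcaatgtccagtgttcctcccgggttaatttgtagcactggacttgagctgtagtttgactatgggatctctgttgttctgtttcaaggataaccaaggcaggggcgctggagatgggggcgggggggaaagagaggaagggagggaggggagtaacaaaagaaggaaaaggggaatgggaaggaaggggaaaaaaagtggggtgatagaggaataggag
Hoxb8: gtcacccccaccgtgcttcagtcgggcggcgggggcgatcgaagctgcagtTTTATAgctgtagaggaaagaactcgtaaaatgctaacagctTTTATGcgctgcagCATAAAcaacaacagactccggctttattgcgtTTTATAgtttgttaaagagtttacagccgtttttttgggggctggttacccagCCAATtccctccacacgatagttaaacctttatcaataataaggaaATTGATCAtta
Hoxd8: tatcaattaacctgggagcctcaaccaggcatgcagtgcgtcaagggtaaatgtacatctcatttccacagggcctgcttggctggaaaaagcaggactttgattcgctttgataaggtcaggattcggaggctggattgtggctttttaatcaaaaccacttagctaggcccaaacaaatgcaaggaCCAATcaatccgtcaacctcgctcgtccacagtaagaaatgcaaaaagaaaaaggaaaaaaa

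Hoxa7 held 2 matches to TTTATG and no other match, and Hoxa9 held none of the 4 motifs. In Hoxb8 there were 2 matches to TTTATG, 2 to TATAAA, 1 to CCAAT and 1 to TGATNNAT, none of them overlapping another, while Hoxd8 held 1 CCAAT. The table held 24 promoters of 22 of the 37 Hox genes. Among the 24, TGATNNAT was found in 4, TTTATG in 5, TATAAA in 4 and CCAAT in 14; the shares among all 32851 promoters of this length were 7.68%, 10.8%, 12.4% and 33.8%. The Hox windows were rich in CpG, with a median of 12.5 CpG (range 2 to 35) against a median of 6 over all promoters, and 19 of the 24 lay above that median. Promoters of genes that fell at either stage (7 promoters, 6 to 28 CpG) and of genes that rose (6 promoters of 5 genes, 3 to 20 CpG) overlapped in CpG count. These matches describe letters in a window and are no evidence of binding.

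Depth was even, at 25223874 to 28892685 counts per library over one row per named gene. Noc2l itself was at 85.5 to 120.7 CPM (the count scaled to a common library size) in every library. It was called lower at E17.5 (−0.39 ± 0.10 on the log2 scale, adjusted p = 0.0062) and not at E15.5 (−0.12 ± 0.10, adjusted p = 0.34). The labels do not say which exons the deletion removes, and the counts cover whole transcripts, so this level does not check the labels. The keratinocyte markers Krt5 and Krt14 were present in all 8 libraries, with Krt14 at 1454 to 1651 CPM in controls and 403 to 534 CPM in knockouts. Krt5 was at 3873 to 4337 CPM in controls and 424 to 1145 CPM in knockouts. Markers of dermal fibroblasts were present in every library as well, with Col1a1 at 8384 to 11013 CPM in controls and 27238 to 38648 CPM in knockouts. Col1a1 thus lay above Krt5 in every library, in CPM that are not divided by transcript length.

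Levels are given as CPM per kilobase of transcript (CPM per kb), the scale on which genes of different length can be set side by side. Averaged over the 4 control libraries the highest Hox gene was Hoxc6 at 20.5 CPM per kb, followed by Hoxc8 at 16.9, Hoxa7 at 12.9, Hoxc4 at 11.1 and Hoxd8 at 9.82. In the knockouts the order differed: Hoxc6 was again highest, at 22.6 to 28.4, while Hoxc8, at 8.43 to 10.3, and Hoxa7, at 3.59 to 5.22, lay below Hoxc4 and Hoxd8 in all 4 libraries. In the control libraries Hoxc6 lay between 19.9 and 21.4, and at E17.5 Hoxc8 lay within that range at 20.5 and 20.0, so the top pair could not be ordered there. The genes numbered 11 to 13 all averaged under 1 CPM over the 8 libraries. Cluster C carried the largest summed level in the E15.5 controls, at 56.5 and 57.2 CPM per kb, against 49.5 and 52.5 for cluster B, 38.1 and 36.1 for cluster A and 23.8 and 28.7 for cluster D.

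**Figure D1:**
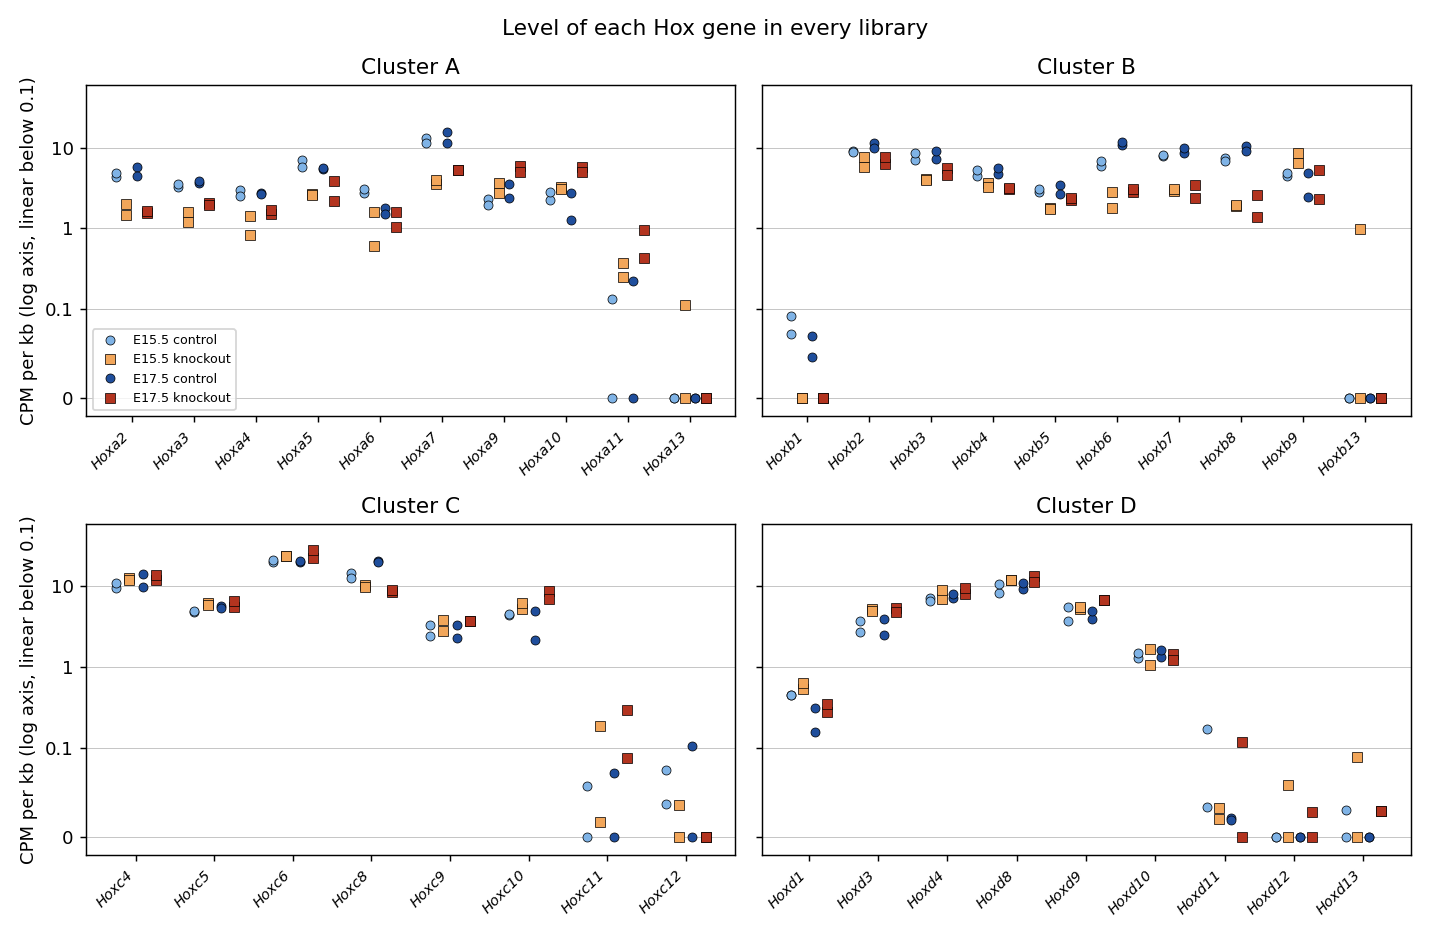
Level of each of the 37 Hox genes in every library, in CPM per kb (log axis, linear below 0.1), with 1 panel per cluster and genes ordered from anterior to posterior; circles are control and squares knockout libraries. In clusters A and B most knockout squares lie below the control circles up to Hoxa7 and Hoxb8, and in clusters C and D Hoxc8 is the gene with both stages below its controls.

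At E15.5, 13 Hox genes fell in the knockout (Hoxa2 to Hoxa7, Hoxb3 to Hoxb8 and Hoxc8) and 1 rose (Hoxd3), of 30 with enough reads to be tested. These are 43.3% and 3.33% of the Hox genes tested, where 22.3% and 23.2% of all 16341 genes tested fell and rose. Taking both directions together, 46.7% of the Hox genes were called, near the 45.5% of all genes, so the number of calls does not set Hox genes apart and only their split by direction differs from the background. The median log2 fold change of the 30 was −0.23, against −0.0050 over all genes tested. Both knockouts lay below both controls in 15 of the 30 genes and above them in 11, against 37.3% and 37.1% of all genes. A call here is an edgeR quasi-likelihood test with an adjusted p under 0.05 over all genes.

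At E17.5, 12 fell (Hoxa2 to Hoxa5, Hoxa7, Hoxb2, Hoxb3, Hoxb4, Hoxb6, Hoxb7, Hoxb8 and Hoxc8) and 7 rose (Hoxa9, Hoxa10, Hoxa11, Hoxc6, Hoxc10, Hoxd3 and Hoxd9). These are 40% and 23.3% of the Hox genes tested, against a background of 26.7% fallen and 26.7% risen, and 63.3% in both directions against 53.4%. The median of the 30 was −0.04 and that of all genes −0.02. Both knockouts lay below both controls in 13 of the 30 genes and above them in 10, against 39.7% and 38.4% of all genes. With library totals as the only scaling, which moves the median of all genes to −0.23, the split was 13 fallen and 4 risen: Hoxc6, Hoxd3 and Hoxd9 were no longer called and Hoxb5 was called lower. Across both stages 11 genes fell at each, Hoxd3 rose at each, and none was called in opposite directions. The like shares over all genes were not counted, so these numbers cannot be set against a background.

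Read by cluster, the falls lay in A and B. In cluster A all 6 genes from Hoxa2 to Hoxa7 fell at E15.5 and 5 of the 6 at E17.5. In cluster B 6 of the 7 genes from Hoxb2 to Hoxb8 fell at each stage. These ranges end where the falls end. Over all genes tested in the cluster, 6 of 9 in A fell at E15.5 and 5 of 9 at E17.5. In B it was 6 of 8 at each stage. Of all genes tested, 22.3% fell at E15.5 and 26.7% at E17.5. Clusters C and D had 1 fallen gene between them at either stage, Hoxc8. Their medians were 0.24 (C) and 0.23 (D) at E15.5 and 0.22 and 0.40 at E17.5, against −1.29 (A) and −0.85 (B) and then −0.75 and −0.73. Among the 9 posterior genes tested edgeR called none at E15.5 (1, Hoxa9, at an unadjusted p under 0.05 and by DESeq2), while 5 rose at E17.5, against 26.7% of all genes. Hoxa9 was close to the threshold at E15.5 and was called in 8 of the 15 alternatives. None of the 9 fell at either stage, also at an unadjusted p under 0.05 and by DESeq2 (0 each). The 30 tested genes share libraries, so they are not independent observations. The Hoxd3 and Hoxc10 transcripts share bases with Hoxd4 and Hoxc5, but not with the Hoxd4 and Hoxc5 transcripts that were counted.

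Markers of cell types changed along with the Hox genes. Of all genes tested, 23.2% rose and 22.3% fell at E15.5, and 26.7% rose and 26.7% fell at E17.5. Of 14 dermal fibroblast markers 13 rose at E15.5 and 12 at E17.5, and their summed level went from 31731 to 33731 CPM in controls to 78180 to 96690 in knockouts at E15.5, and from 27556 to 31851 to 98989 to 104580 at E17.5. Of 10 basal keratinocyte markers 9 fell at each stage and 1, Dst, rose at E17.5, with sums of 7325 to 7792 CPM against 2238 to 2275 at E15.5 and 7885 to 7890 against 1442 to 1463 at E17.5. All 9 suprabasal and all 8 hair follicle markers fell at both stages, and all 6 endothelial markers rose at both. The largest median rise was that of 6 erythroid markers (2.75 and 3.40), of which 6 rose at E15.5 and 5 at E17.5, with sums of 3068 to 4190 CPM against 17765 to 30867 at E15.5 and 1155 to 1261 against 13219 to 14900.33 at E17.5. Of 7 muscle markers 6 and then 7 rose (medians 0.57 and 1.27), all 5 myeloid markers tested rose at both stages (1.12 and 1.35), and 6 and then 3 of 6 melanocyte markers rose (0.77 and 0.35). No marker of the fibroblast or basal list was at 0 in any library. The part of these cell types in the Hox values was not tested, and in bulk RNA fewer cells of a type and less RNA per cell cannot be told apart.

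**Figure D2:**
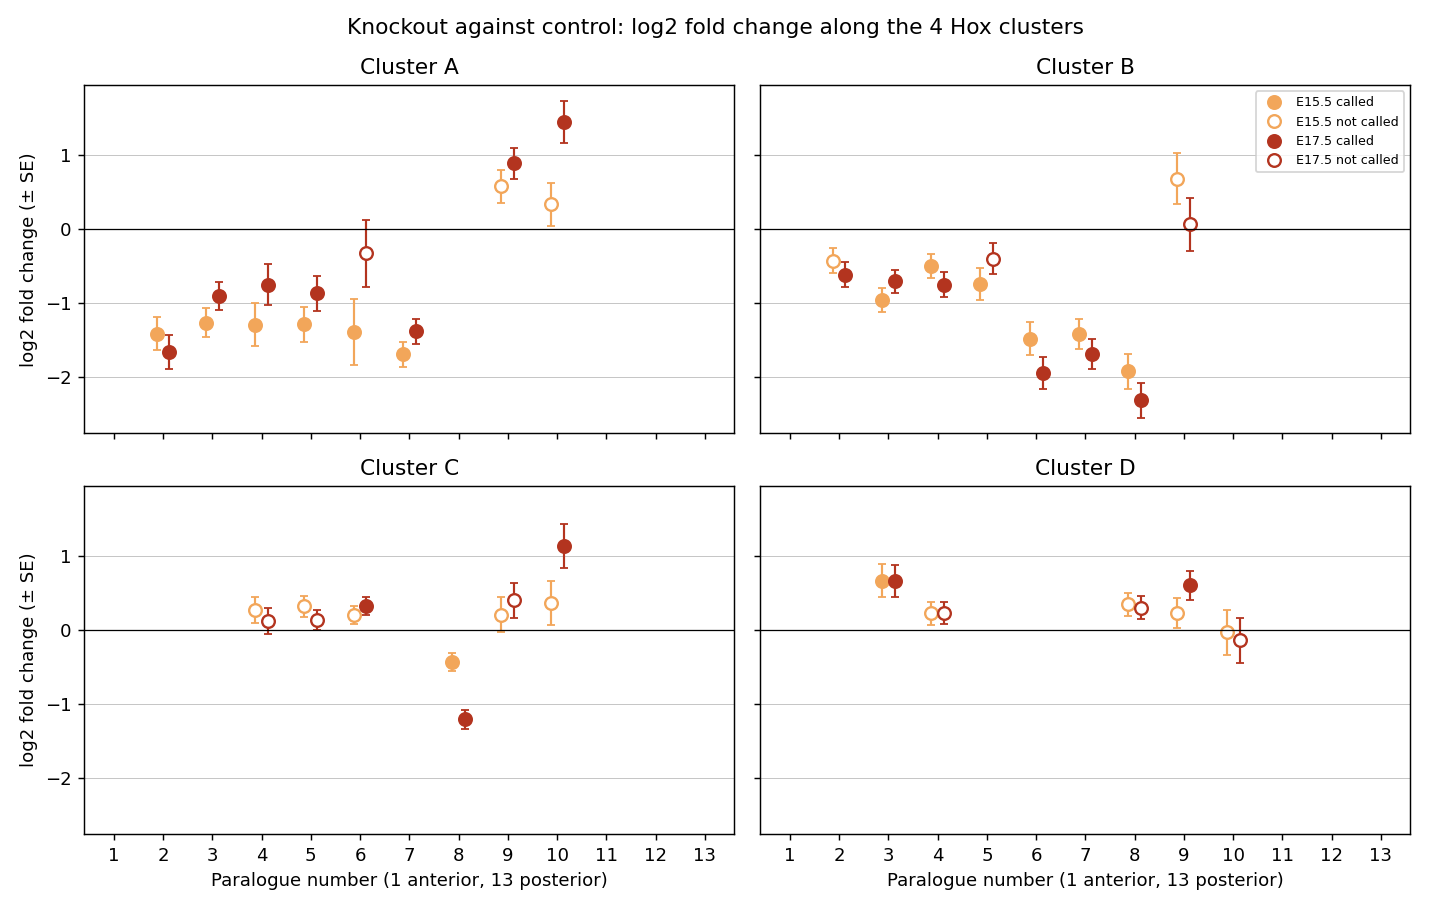
Log2 fold change of knockout against control (± SE) by paralogue number, with 1 panel per cluster; filled points are called by edgeR (adjusted p under 0.05), open points are not, orange is E15.5 and red E17.5. The 3 tested genes with a mean under 1 CPM are not drawn. Clusters A and B run below 0 up to Hoxa7 and Hoxb8 and above 0 from Hoxa9 on, while only Hoxc8 is called below 0 in clusters C and D.

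The anterior and central genes of cluster A fell together, most of them at both stages. Hoxa2, which specifies the second pharyngeal arch, was at 4.32 and 4.91 CPM per kb against 1.48 and 1.98 at E15.5, and at 5.68 and 4.397 against 1.56 and 1.62 at E17.5. It fell by 1.41 ± 0.22 (adjusted p = 0.00036) and by 1.66 ± 0.23 (adjusted p = 8.5e-05). Knockouts and controls did not overlap at either stage. Hoxa3, needed for the thymus and parathyroid, was at 3.25 and 3.53 against 1.61 and 1.21 CPM per kb, and at 3.68 and 3.81 against 2.06 and 1.96. It fell by 1.26 ± 0.20 (adjusted p = 0.00031) and by 0.90 ± 0.19 (adjusted p = 0.0020). Again no knockout library reached a control.

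The central genes Hoxa4 to Hoxa6 fell at E15.5 with more spread. Hoxa4 was at 3.01 and 2.51 CPM per kb in E15.5 controls and 0.836 and 1.41 in knockouts, then 2.71 and 2.64 against 1.49 and 1.69. It fell by 1.29 ± 0.29 (adjusted p = 0.0034) and by 0.75 ± 0.28 (adjusted p = 0.040). The groups were apart at both stages, but the E17.5 call was lost when any 1 of the 4 E17.5 libraries was left out (adjusted p = 0.11 and 0.10 without control replicates 1 and 2, and 0.16 and 0.0775 without knockout replicates 1 and 2) and under DESeq2 (adjusted p = 0.058).

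Hoxa5, which acts in lung and in the neck and chest skeleton, was at 7.10 and 5.79 CPM per kb against 2.66 and 2.62 at E15.5, and at 5.46 and 5.54 against 3.83 and 2.20 at E17.5. It fell by 1.29 ± 0.24 (adjusted p = 0.0010) and by 0.87 ± 0.24 (adjusted p = 0.0089). The E17.5 knockouts were uneven: without knockout replicate 2 the log2 change was −0.54 (adjusted p = 0.068), and without knockout replicate 1 it was −1.34. Hoxa6 was at 2.72 and 3.08 against 1.61 and 0.604, and at 1.78 and 1.51 against 1.59 and 1.03. It fell by 1.39 ± 0.44 at E15.5 (adjusted p = 0.024) and was not called at E17.5 (−0.33 ± 0.45, adjusted p = 0.56), where the groups overlapped. The E15.5 call was lost without control replicate 1 (adjusted p = 0.056), control replicate 2 (0.092) or knockout replicate 2 (−0.85, adjusted p = 0.16), and the change was −2.26 without knockout replicate 1.

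Hoxa7, a thoracic gene with the highest level of the cluster in the controls (chr6:52215623-52218573), was at 13.2 and 11.4 CPM per kb in the E15.5 controls and 3.59 and 4.03 in the knockouts, and at 15.6 and 11.6 against 5.22 and 5.22 at E17.5. It fell by 1.68 ± 0.17 (adjusted p = 1.2e-05) and by 1.38 ± 0.16 (adjusted p = 3e-05). The next gene along the chromosome, Hoxa9 (chr6:52223097-52227370), went the other way. Hoxa9, a regulator of blood progenitors, was at 2.31 and 1.96 against 3.67 and 2.70, and at 3.50 and 2.37 against 5.90 and 4.92. At E15.5 the difference of 0.58 ± 0.22 missed the threshold (adjusted p = 0.055) although the groups were apart, and at E17.5 it rose by 0.88 ± 0.22 (adjusted p = 0.0048).

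Hoxa10, which acts in the lumbar skeleton and the uterus, was at 2.25 and 2.79 CPM per kb against 3.25 and 3.10 at E15.5, and at 2.71 and 1.25 against 5.78 and 4.95 at E17.5. The log2 difference was 0.33 ± 0.29 (adjusted p = 0.37) and then a rise of 1.44 ± 0.29 (adjusted p = 0.0013). The E17.5 controls differed from each other more than 2-fold, yet both stayed below both knockouts. The rise was 2.10 without control replicate 1 and 0.98 without control replicate 2, and was called in both. The change in its difference between the stages was 1.11 ± 0.40 (adjusted p = 0.17). Hoxa11, a gene of the forearm and lower leg that averaged under 1 CPM and is named here for its call alone, had 0 and 8 reads in the E15.5 controls, 23 and 16 in the knockouts, and 14 and 0 against 60 and 27 at E17.5. Its call at E17.5 (2.67 ± 0.99, adjusted p = 0.039) was lost without control replicate 2 (1.63, adjusted p = 0.16) or knockout replicate 1 (1.95, adjusted p = 0.21), under DESeq2 (adjusted p = 0.31) and with summed transcripts (adjusted p = 0.051). At each stage 1 of its controls had no read, so its size of change is poorly set, and without control replicate 1 of E17.5 the control left had 0 reads and no size can be given. Of its transcript 34.98% is shared with the antisense gene Hoxa11os, and the like holds for 28.8% of Hoxa7 (Hoxaas3), 25.6% of Hoxa3 and 16.0% of Hoxa4. Without a stated strand setting, reads of the antisense genes cannot be told apart from theirs.

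**Figure D3:**
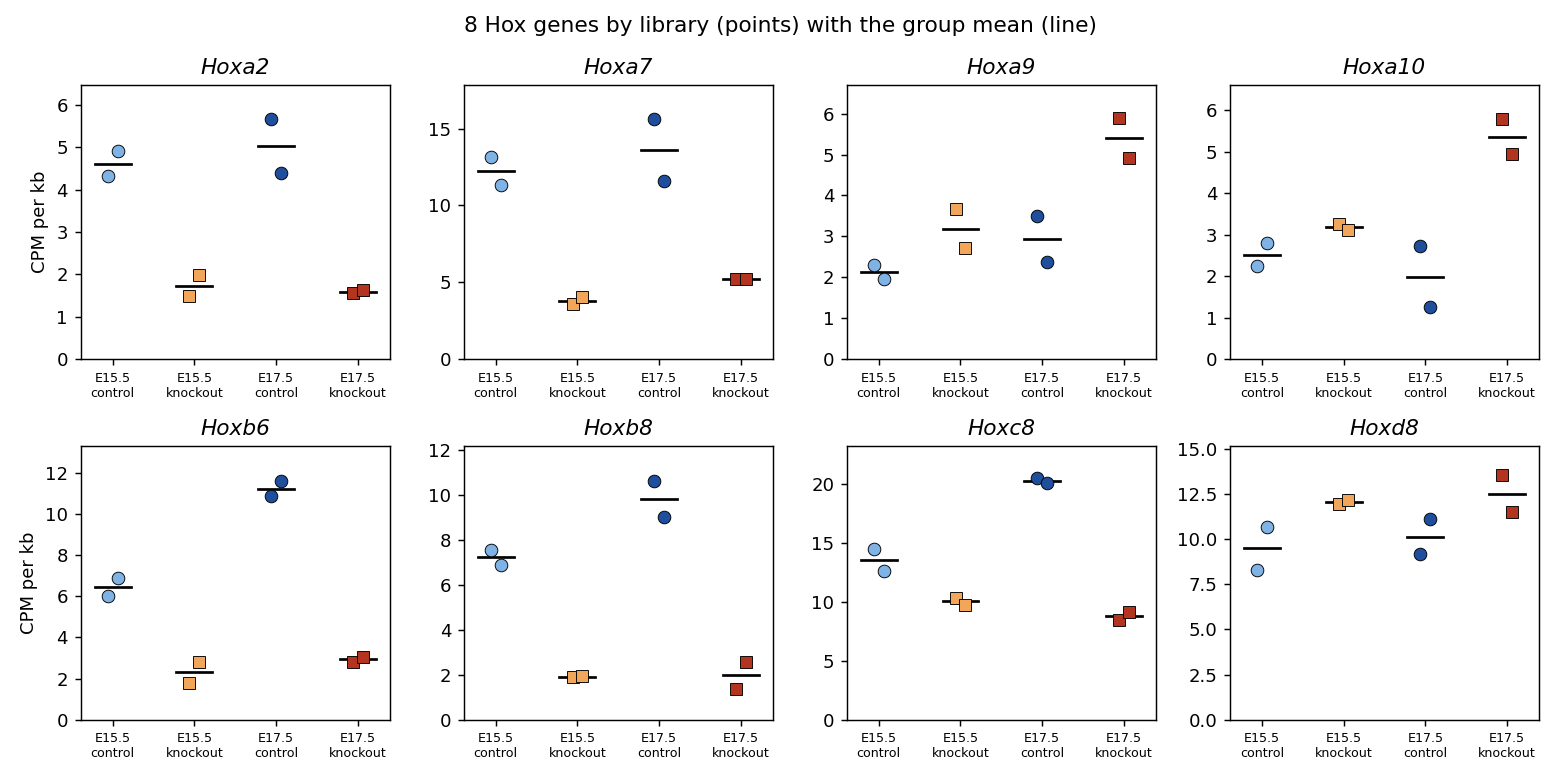
Levels of 8 Hox genes in each library in CPM per kb (linear axes from 0), with points for libraries and a line for the mean of each group. Hoxa2, Hoxa7, Hoxb6, Hoxb8 and Hoxc8 are lower in all knockouts than in the controls of the same stage, Hoxa9 and Hoxa10 are higher, and Hoxd8 is shown as a gene that was not called.

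In cluster B 6 of the 8 genes tested fell at each stage, all of them within the 7 from Hoxb2 to Hoxb8. The exceptions in that range were Hoxb2 at E15.5 and Hoxb5 at E17.5, and Hoxb6, Hoxb7 and Hoxb8 had the larger changes. Hoxb2, a hindbrain gene, was at 9.09 and 8.89 CPM per kb against 5.75 and 7.63 at E15.5, and at 11.5 and 9.90 against 6.35 and 7.57 at E17.5. The difference was −0.43 ± 0.17 (adjusted p = 0.061) at E15.5, without overlap of the groups, and it fell by 0.62 ± 0.17 (adjusted p = 0.0091) at E17.5, a call that was lost without control replicate 1 (adjusted p = 0.064) or knockout replicate 1 (0.068). Hoxb3, which acts with Hoxa3 in the pharynx, was at 7.09 and 8.51 against 4.06 and 3.96, and at 7.32 and 9.17 against 5.56 and 4.55. It fell by 0.96 ± 0.16 (adjusted p = 0.00050) and by 0.71 ± 0.16 (adjusted p = 0.0028). Of the bases of these transcripts, 58.5% in Hoxb2 and 70.5% in Hoxb3 are shared with the antisense gene Hoxb3os, and as the strand setting of the counting is not given, reads of the antisense gene cannot be told apart from theirs.

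Hoxb4, known for expanding blood stem cells, was at 4.46 and 5.28 CPM per kb against 3.69 and 3.21, and at 4.75 and 5.64 against 3.06 and 3.12. It fell by 0.50 ± 0.17 (adjusted p = 0.030), a call lost without control replicate 2 (adjusted p = 0.18) or knockout replicate 2 (0.16), and by 0.75 ± 0.17 at E17.5 (adjusted p = 0.0027). Both knockouts lay below both controls at each stage. Hoxb5 was at 2.81 and 3.10 against 1.80 and 1.73, and at 3.44 and 2.66 against 2.24 and 2.39. It fell by 0.75 ± 0.22 at E15.5 (adjusted p = 0.015), lost without control replicate 2 (0.076), knockout replicate 1 (0.051) or knockout replicate 2 (0.068), and at E17.5 the difference of −0.40 ± 0.21 was not called (adjusted p = 0.13).

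Hoxb6, a gene of the trunk mesoderm (chr11:96292814-96301569), was at 6.001 and 6.89 CPM per kb against 1.79 and 2.82 at E15.5, and at 10.9 and 11.6 against 2.82 and 3.05 at E17.5. It fell by 1.48 ± 0.22 (adjusted p = 0.00024) and by 1.94 ± 0.21 (adjusted p = 1.8e-05). Its knockout values stayed within 1.79 to 3.05 at both stages, while its controls were higher at E17.5 than at E15.5. Hoxb7 was at 7.92 and 8.06 against 2.92 and 3.08, and at 8.56 and 9.95 against 2.38 and 3.40. It fell by 1.41 ± 0.20 (adjusted p = 0.00018) and by 1.68 ± 0.20 (adjusted p = 3.5e-05).

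Hoxb8, which acts in blood progenitors and microglia (chr11:96279401-96285325), was at 7.52 and 6.89 CPM per kb against 1.90 and 1.92 at E15.5, and at 10.6 and 8.98 against 1.37 and 2.58 at E17.5. It fell by 1.92 ± 0.23 (adjusted p = 5.3e-05) and by 2.31 ± 0.23 (adjusted p = 8.8e-06), the largest falls of cluster B at both stages. Hoxb9, next to it, did not follow: it was at 4.50 and 4.79 against 6.40 and 8.50, and at 4.80 and 2.43 against 2.30 and 5.24. Its differences were 0.68 ± 0.35 (adjusted p = 0.13) and 0.07 ± 0.36 (adjusted p = 0.89), the latter turning to −0.14 with library totals as the only scaling.

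In cluster C Hoxc8 was the 1 gene that fell at either stage, and at E17.5 Hoxc6 and Hoxc10 rose. Hoxc8, which shapes ribs and forelimb motor neurons (chr15:102990539-102994275), was at 14.5 and 12.6 CPM per kb in the E15.5 controls and 10.3 and 9.70 in the knockouts, and at 20.5 and 20.0 against 8.43 and 9.12 at E17.5. It fell by 0.43 ± 0.12 at E15.5 (adjusted p = 0.013), a call lost without control replicate 1 (adjusted p = 0.11) or knockout replicate 2 (0.079), and by 1.21 ± 0.12 at E17.5 (adjusted p = 8.8e-06). The groups did not overlap, and the controls moved apart from the knockouts between the stages.

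Hoxc4 and Hoxc6 changed little in size. Hoxc4, a gene of the neck and upper trunk, was at 9.54 and 11.02 CPM per kb against 12.7 and 12.1 at E15.5, and at 9.76 and 14.1 against 11.9 and 14.03 at E17.5. Its differences were 0.27 ± 0.17 (adjusted p = 0.23) and 0.12 ± 0.17 (adjusted p = 0.57), and the E17.5 value was −0.09 with library totals as the only scaling. Hoxc6, the highest Hox gene by its mean over the 8 libraries, was at 19.9 and 21.4 against 23.8 and 23.7, and at 20.2 and 20.7 against 22.6 and 28.4. The first difference of 0.20 ± 0.12 was not called (adjusted p = 0.21), and the second, 0.32 ± 0.12, was called narrowly (adjusted p = 0.048). That call was lost under 12 of 15 alternatives, DESeq2 and library totals included, and without knockout replicate 2, which is the high value of 28.4, the difference was 0.13 (adjusted p = 0.48).

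Hoxc10, a gene of the lumbar level and the hindlimb (chr15:102966796-102971898), was at 4.41 and 4.59 CPM per kb against 5.25 and 6.30 at E15.5, and at 4.95 and 2.19 against 8.68 and 6.89 at E17.5. It was not called at E15.5 (0.36 ± 0.29, adjusted p = 0.34) and rose by 1.13 ± 0.29 at E17.5 (adjusted p = 0.0070). As with Hoxa10, the E17.5 controls were uneven, with replicate 2 low. The change was 1.83 without control replicate 1, 0.65 without control replicate 2 (adjusted p = 0.029) and 0.93 without knockout replicate 1 (adjusted p = 0.054). Hoxc5 (0.32 ± 0.14, then 0.13 ± 0.14) and Hoxc9 (0.21 ± 0.24, then 0.40 ± 0.24) were called at neither stage.

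No gene of cluster D fell at either stage by edgeR, by DESeq2 or at an unadjusted p under 0.05 (0 each). Hoxd3, which shapes the first neck vertebrae (chr2:74711993-74748271), was at 2.75 and 3.69 CPM per kb against 5.26 and 4.94 at E15.5, and at 2.47 and 3.96 against 5.33 and 4.87 at E17.5. It rose by 0.67 ± 0.22 (adjusted p = 0.027) and by 0.66 ± 0.22 (adjusted p = 0.023), and both knockouts were above both controls at each stage. The E15.5 call was lost without control replicate 1 (0.47, adjusted p = 0.19), knockout replicate 1 (0.10) or knockout replicate 2 (0.060). The E17.5 call was lost without control replicate 1 (0.36, adjusted p = 0.17) or knockout replicate 1 (adjusted p = 0.10), and without control replicate 2 the rise was 1.05. Of the Hoxd3 transcript 88.0% is shared on its own strand with Hoxd4 and the gene model Gm28230, so its count is uncertain. On the opposite strand 11.7% of it is shared with Hoxd3os1, and the strand setting of the counting is not given. The Hoxd4 transcript that was counted shares 45.1% of its bases with Gm28230 alone, so its count is uncertain too.

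Hoxd9, which acts with Hoxa9 in the upper limb, was at 3.69 and 5.61 CPM per kb against 5.27 and 5.62 at E15.5, where the groups overlapped (0.23 ± 0.20, adjusted p = 0.38), and at 3.97 and 4.98 against 6.72 and 6.87 at E17.5. It rose by 0.60 ± 0.20 at E17.5 (adjusted p = 0.024), a call lost without control replicate 1 (0.45, adjusted p = 0.15), knockout replicate 1 (0.072) or knockout replicate 2 (0.083). Hoxd8 was at 8.30 and 10.7 against 11.9 and 12.2, and at 9.16 and 11.1 against 13.5 and 11.5. Its knockouts were above its controls at both stages, but the differences of 0.34 ± 0.15 (adjusted p = 0.085) and 0.30 ± 0.15 (adjusted p = 0.11) did not pass. Hoxd1, Hoxd4 and Hoxd10 were also called at neither stage, with log2 differences from −0.14 (Hoxd10, E17.5) to 0.40 (Hoxd1, E17.5). Hoxd11, which has few reads, was not called either. Its difference was −1.87 ± 1.21 at E15.5 (adjusted p = 0.23), with both knockouts below both controls. At E17.5 it was 1.48 ± 1.35 (adjusted p = 0.38), and it ran from −4.02 to 2.44 over the alternatives.

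Ratios of 2 Hox genes within a library do not depend on how libraries are scaled. The pairs set a gene that fell over one that did not, so that the groups differ restates the fold changes above, and no test was run. Hoxa7 was 5.71 and 5.78 times Hoxa9 per length in the E15.5 controls and 0.979 and 1.49 times in the knockouts, and 4.46 and 4.88 against 0.885 and 1.06 at E17.5. Hoxa7 thus lay well above Hoxa9 in every control, and at 0.885 to 1.49 times Hoxa9 in the knockouts. Hoxb8 was 0.906 and 0.645 times its paralogue Hoxd8 in E15.5 controls and 0.159 and 0.158 times in knockouts, and 1.16 and 0.808 against 0.101 and 0.225 at E17.5. Hoxb6 was 0.302 and 0.322 times Hoxc6 against 0.0752 and 0.119, and 0.538 and 0.562 against 0.125 and 0.107. Within cluster C, Hoxc8 was 0.729 and 0.587 times Hoxc6 against 0.434 and 0.410 at E15.5, and 1.02 and 0.969 against 0.373 and 0.321 at E17.5.

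Summed over a cluster, the A genes were at 38.1 and 36.1 CPM per kb in E15.5 controls and 19.2 and 17.9 in knockouts, and at 41.4 and 33.1 against 28.4 and 24.02 at E17.5. The B genes were at 49.5 and 52.5 against 29.3 and 32.8, and at 61.9 and 60.4 against 26.1 and 31.9. The C sums ran from 56.5 to 68.9 over all 8 libraries. At E15.5 they were higher in the knockouts, at 62.4 and 60.5 against 56.5 and 57.2, and at E17.5 the groups overlapped. The D sums were higher in the knockouts at both stages, at 31.3 and 34.1 against 23.8 and 28.7 and at 35.4 and 34.6 against 24.3 and 29.96. The share of A and B in the whole Hox level was therefore smaller in each knockout library than in any control, except for the A share at E17.5, where control replicate 2 was at 17.6% and knockout replicate 1 at 18.8%.

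**Figure D4:**
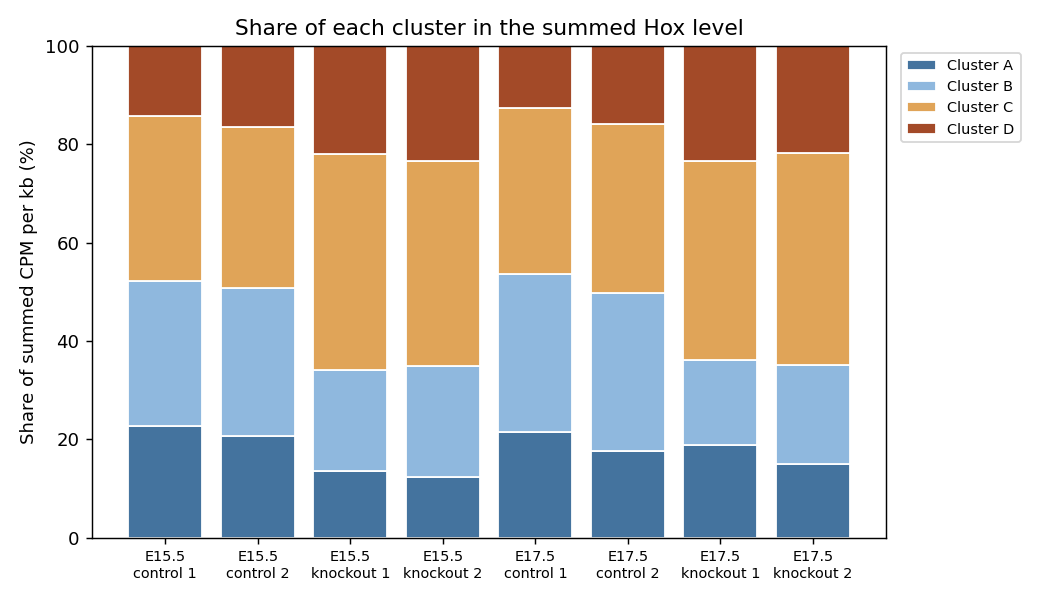
Share of each cluster in the summed Hox level (CPM per kb, in percent) in the 8 libraries. Cluster B takes 29.5% to 32.2% in the controls and 17.3% to 22.6% in the knockouts, and cluster C 32.8% to 34.4% against 40.5% to 43.9%.

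The remaining genes had few reads. The 7 that were not tested were Hoxa13, Hoxb1, Hoxb13, Hoxc11, Hoxc12, Hoxd12 and Hoxd13, and of the tested ones Hoxa11, Hoxd1 and Hoxd11 averaged under 1 CPM. Hoxb1, a hindbrain gene, had 4 and 5 reads in the E15.5 controls, 4 and 3 in the E17.5 controls and 0 in all 4 knockout libraries. A count of 0 over the knockout pair was taken to allow up to 3 reads. Against that limit the controls were 3.17-fold higher at E15.5 and 2.19-fold higher at E17.5. These values take the few control reads as exact, so they are not lower bounds, and Hoxb1 was not tested. Hoxb13, the most posterior gene of its cluster, had 59 reads in knockout replicate 1 of E15.5 and 0 in the other 7 libraries. That library alone also held all 4 reads of Hoxa13 and 6 of the 12 of Hoxd13. Hoxc11 had 0 and 3 reads against 10 and 1 at E15.5, and 4 and 0 against 16 and 5 at E17.5, while Hoxd11, counted on a non-coding transcript variant, had 0 to 15 reads in a library.

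**Figure D5:**
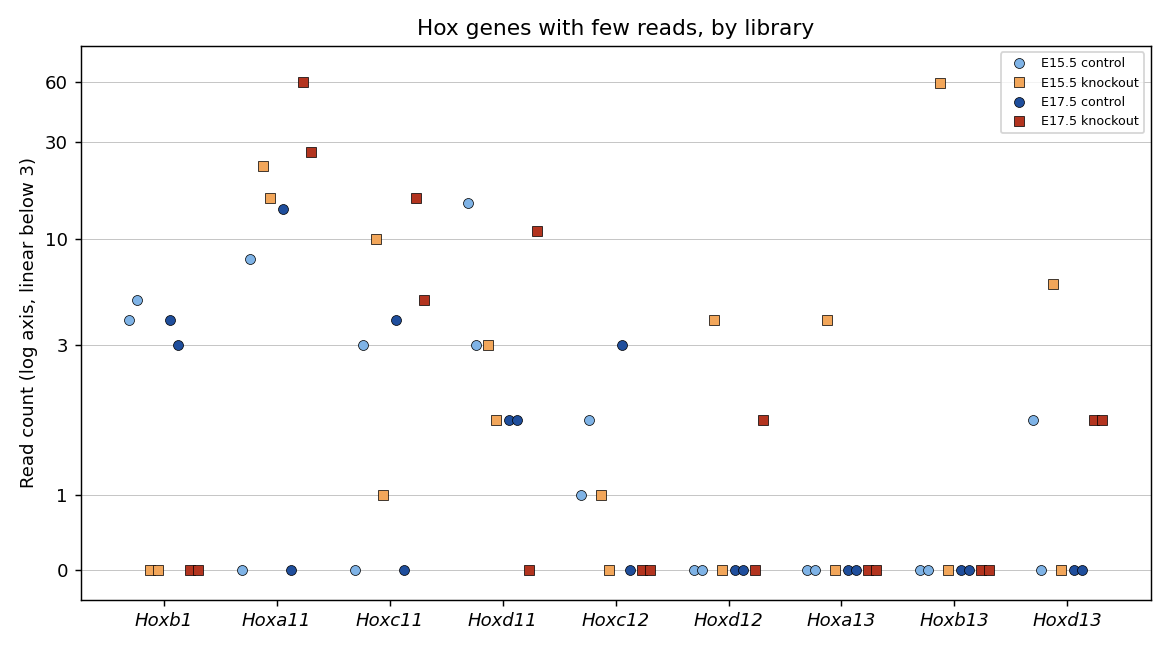
Read counts of 9 Hox genes with few reads in each library (log axis, linear below 3), circles for control and squares for knockout libraries. Hoxb1 is at 0 in all 4 knockouts, and the 59 reads of Hoxb13 are in a single E15.5 knockout library.

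The effects were then compared between the stages. These comparisons use the same libraries as those above, so they add no independent evidence. Hoxc8 was the 1 Hox gene of 30 whose knockout effect differed between E15.5 and E17.5 (−0.77 ± 0.17, adjusted p = 0.028). That is 3.33% of the Hox genes tested against 4.34% of all genes, so the count does not exceed the background; by direction 1.87% of all genes had a higher and 2.47% a lower effect at E17.5. No Hox gene had a higher effect there (1, Hoxa10, at an unadjusted p under 0.05 and 0 by DESeq2). The call was lost when any 1 library other than E15.5 control replicate 1 was left out, with adjusted p from 0.051 to 0.11.

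From E15.5 to E17.5 in the controls, Hoxc8 rose by 0.58 ± 0.12 (adjusted p = 0.0092) and Hoxb6 by 0.80 ± 0.20 (adjusted p = 0.027), and no Hox gene fell (0 also by DESeq2 and at an unadjusted p under 0.05). Together 6.67% of the Hox genes were called against 10.9% of all genes (3.18% risen and 7.71% fallen). Leaving out E15.5 control replicate 2 ended the Hoxc8 call (adjusted p = 0.11), and leaving out any of the 4 control libraries ended that of Hoxb6 (adjusted p from 0.063 to 0.16). In the knockouts Hoxa9 alone rose (0.76 ± 0.22, adjusted p = 0.037) and none fell (1, Hoxb9, at an unadjusted p under 0.05 and 0 by DESeq2), which is 3.33% against 13.1% of all genes (6.2% risen and 6.92% fallen), and the call was lost without either E15.5 control (adjusted p = 0.0505 and 0.0503), knockout replicate 2 of E15.5 (0.30), or knockout replicates 1 and 2 of E17.5 (0.24 and 0.059). Hoxc8 was not called there (−0.19 ± 0.12, adjusted p = 0.38).

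The genes that work with Hox proteins or on the clusters were read from lists. Of 9 TALE partners 4 rose and none fell at E15.5, and 3 rose and none fell at E17.5, with list medians of 0.19 and 0.11. Beside every list stands the share of all genes tested, 23.2% risen and 22.3% fallen at E15.5 and 26.7% each at E17.5, to which the 3 of 9 risen at E17.5 is close. At an unadjusted p under 0.05, 2 of the 9 fell at E15.5 (Pbx2 and Pbx3) and 1 at E17.5 (Pbx4), and DESeq2 called 0 lower. Meis1, a cofactor of the posterior Hox proteins, rose by 1.07 ± 0.11 and 0.93 ± 0.11 on the log2 scale. Meis2 rose by 0.73 ± 0.12 and 0.82 ± 0.12, and Pknox2 by 0.80 ± 0.18 and 1.54 ± 0.18. Of 16 Polycomb genes 6 fell and 1 rose at E15.5, and 7 fell and 2 rose at E17.5, with medians of −0.20 and −0.20, against 22.3% and then 26.7% of all genes fallen. Cbx2, a chromodomain reader of the Polycomb mark, fell by 1.54 ± 0.13 and 1.94 ± 0.14. Cbx7, another reader, fell by 1.84 ± 0.21 at E15.5 and fell by 1.81 ± 0.22 at E17.5, and Ezh2, the enzyme that writes the mark, fell by 0.59 ± 0.11 and 0.98 ± 0.11.

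Of 9 trithorax and demethylase genes 2 fell and none rose at E15.5, and 3 fell and 2 rose at E17.5, with medians of −0.04 and −0.02; the counts that fell are near the shares of all genes. The 0 risen at E15.5 was 1, Kmt2a, at an unadjusted p under 0.05 and 0 by DESeq2. Ash2l, a subunit of the histone H3 methylating complexes, fell by 0.42 ± 0.10 and 0.52 ± 0.10. Kdm6a, which removes the Polycomb mark, fell by 0.57 ± 0.19 and 0.51 ± 0.18, while Kmt2a, the methyltransferase best known for keeping Hox genes active, was at 0.23 ± 0.10 (adjusted p = 0.089) and rose by 0.34 ± 0.10 (adjusted p = 0.015). Cdx1, Cdx2 and Cdx4, which switch on central and posterior Hox genes in the early embryo, had 0 reads in all 8 libraries, where 3 reads correspond to 0.0964 to 0.115 CPM.

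Of 11 other factors of body position in skin and limb, 6 rose and 1 fell at E15.5 and 6 rose and 3 fell at E17.5, with medians of 0.42 and 0.47, against 23.2% and then 26.7% of all genes risen. The 3 of 11 fallen at E17.5 is near the 26.7% of all genes fallen. Alx4, which patterns the limb bud and is used in hair follicle formation, fell by 2.41 ± 0.14 at E15.5 and fell by 3.56 ± 0.14 at E17.5. En1, which marks the ventral limb ectoderm and a lineage of dorsal dermis, rose by 1.11 ± 0.16 and 0.85 ± 0.16. Pax3, a gene of the neural crest, of melanoblasts and of muscle progenitors, was at −0.08 ± 0.20 (adjusted p = 0.77) and then fell by 1.65 ± 0.21. The fibroblast and keratinocyte markers given above moved in the same libraries, and their part in these values was not tested either.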

How the data were processed

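The members and the gene lists were chosen with earlier results of these data known; some genes that they would hold are not reported here. The authors deposited 1 raw count per RefSeq transcript and library; per the series design text the reads were aligned to mm10 with TopHat2 and counted with HOMER. Whether the counting used strand is not given in the sources used here. The deposited counts of 8 libraries were used; 8 value columns without names in tables that join the libraries were not. Of 30521 transcripts, 29144 were named from a RefSeq table (GRCm38.p6) and 177 from GENCODE M21. The 1200 unnamed rows (3.14% of counts) entered neither library sizes nor tests. The transcript with the largest total stood for each gene. Genes were filtered with filterByExpr, scaled by TMM and fitted over all 4 groups with edgeR 4.0.16 (glmQLFit, glmQLFTest; R 4.3.3), with Benjamini-Hochberg adjustment over 16341 genes; the SE is |log2 fold change|/√F. Lengths came from GENCODE M21. The fit was run on simulated counts for the E15.5 contrast alone. Far fewer genes were changed there than were called in these data, so it does not check the calls. Replicates of a group correlated at 0.986 to 0.989 and differed by more than sampling noise. The smallest two-sided p of an exact permutation test with 2 against 2 libraries is 0.333.

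Values in every library are given for genes called in either knockout comparison or in their difference with a mean of at least 1 CPM, and for uncalled genes among the 5 highest per kilobase. Other genes are given by range or count, and each list by its counts and up to 3 members with the smallest p. Hoxa11, Hoxb9 (with all its values), the genes with few reads, and uncalled genes with fold changes only are named in addition, with their values seen. Alternatives were size factors by relative log expression, library totals, DESeq2 1.42.0, no filter, summed transcripts, only the groups compared, a replicate block, and each library left out. The Schwann cell and neuron markers, the list not given in the text, had 3 risen and 2 fallen of 7 at E15.5 and 4 and 2 at E17.5. Of all genes tested, 23.2% rose and 22.3% fell at E15.5 and 26.7% each at E17.5, so the falls in this list are near the background.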

Additional observations from a re-analysis of the deposited data

Results flagged for a closer look

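The knockout effect on Hoxc8 differed between the stages: the change from E15.5 to E17.5 in the log2 fold change was −0.77 (edgeR interaction contrast, SE 0.17, adjusted p = 0.028), with knockouts below controls in both libraries at each stage. The controls rose between the stages (0.58 ± 0.12) and the knockouts had a difference of −0.19 ± 0.12 that was not called. Leaving out any 1 library but E15.5 control replicate 1 ended this call, with adjusted p from 0.051 to 0.11. It is 1 of 30 Hox genes tested, against 4.34% of all genes.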

How the results depend on the processing

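Of the 14 Hox calls at E15.5, 9 were kept under all 15 alternatives (Hoxa2 to Hoxa5, Hoxa7, Hoxb3, Hoxb6, Hoxb7 and Hoxb8), and of the 19 at E17.5, 11 were (Hoxa2, Hoxa3, Hoxa7, Hoxa9, Hoxa10, Hoxb3, Hoxb4, Hoxb6, Hoxb7, Hoxb8 and Hoxc8). The number that rose at E15.5 was 1 in the analysis reported, 2 with library totals, 2 with DESeq2, 3 without the filter on low counts, 3 with only the groups compared, and 0 to 2 with a library left out. At E17.5 it was 7, 4 with library totals, and 3 to 6 with a library left out, while 10 to 12 fell. For the difference between the stages, leaving out a library gave 0 to 2 risen and 0 to 1 fallen; Hoxa10 and Hoxc10 were the 2, without E17.5 control replicate 1. For the stages within controls it gave 0 to 2 risen and 0 to 2 fallen, and within knockouts 0 to 2 risen and 0 to 1 fallen. The knockout stages also gave 2 fallen without the filter (Hoxb13 and Hoxb9) and 2 risen with only the groups compared. Library totals also moved the median of all genes to 0.19 for the stages within controls and to −0.21 for the difference, without changing a Hox call there. The fit of the difference with only the groups compared was not run. Where no value shows it, the cause was not tested.

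The replicate numbers did not pair the libraries, with correlations of deviations from −0.07 to 0.04 over pairs of groups. With the replicate number as a block 2 Hox genes rose and 13 fell at E15.5, the gained one being Hoxa9, and no other call at either stage changed.

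Among the genes given with values in the knockout comparisons, no called value turned sign. With library totals as the only scaling the E17.5 values were −0.138 for Hoxb9, −0.0936 for Hoxc4 and −0.0825 for Hoxc5. With a library left out the values ran, at E15.5, from −0.0373 to 0.450 for Hoxc9, from −0.0437 to 0.559 for Hoxd9 and from −0.407 to 0.256 for Hoxd10. At E17.5 they ran from −0.669 to 0.631 for Hoxb9, from −0.119 to 0.411 for Hoxc4, from −0.0307 to 0.234 for Hoxc5 and from −0.309 to 0.0003 for Hoxd10. Over these values, and the calls of single genes in the other comparisons, 796 alternative values kept direction and side of the threshold, 62 lost and 12 gained a call, and 14 turned. Uncalled values of genes that averaged under 1 CPM, Hoxd11 among them, are not in these counts. Depth limits Hoxb1, Hoxb13 and the genes numbered 11 to 13.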

Other observations

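Non-coding genes of the Hox clusters were counted as well and stand outside the protein-coding set. Hoxa11os, the antisense partner of Hoxa11, had 6 and 3 reads in the E15.5 controls, 33 and 1 in the knockouts, and 4 and 2 against 37 and 24 at E17.5. It rose at E17.5 (3.37 ± 1.08 on the log2 scale, edgeR adjusted p = 0.021), the stage at which Hoxa11 was called, and the shared bases of the pair cannot be told apart. Hoxd3os1, antisense to Hoxd3, had 14 and 29 reads against 48 and 49, and 19 and 29 against 53 and 36, with differences of 1.09 ± 0.44 at E15.5 (adjusted p = 0.061) and 0.99 ± 0.43 at E17.5 (adjusted p = 0.075), neither of them called. Of the Hoxd3 transcript 11.7% is shared with Hoxd3os1, and reads of these bases cannot be told apart either. Hotair, a long non-coding RNA of cluster C, had 0 to 7 reads in a library, and Hoxaas3 had 7 to 24.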
